A study of Mus musculus with 8 samples.

Results

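The 7 genes described here encode Siglecs, cell surface lectins of the immunoglobulin superfamily that bind sialic acid, and were measured in sorted mouse myeloid cells of colorectal tumours, healthy colon and spleen. They are Siglec1, Cd22, Cd33, Siglece, Siglecf, Siglecg and Siglech, chosen by symbol in the submitters' annotated array table, and they are 7 of 21442 named genes on the arrays. Siglecf is listed there under its older symbol Siglec5, and each of the 7 genes has 1 probe set. Total RNA was hybridised to Affymetrix expression arrays, 1 sample per array, with 2 arrays for each of 4 populations. All cells came from untreated C57BL/6 mice of genotype Cx3cr1gfp/+, in which 1 allele of the fractalkine receptor gene Cx3cr1 carries a green fluorescent reporter. F4/80 high tumour-associated macrophages (F4/80-high TAM) and Ly6C high tumour-infiltrating macrophages (Ly6C-high TAM) were sorted from orthotopic colorectal tumours, all labelled male. Steady-state macrophages of the lamina propria (colon macrophages) were sorted from colon, with 1 array labelled male and 1 female. Ly6C high monocytes (spleen monocytes) were sorted from spleen, with 1 array labelled male and 1 mixed. Each population came from 1 tissue, so tissue and population cannot be told apart. Age, the origin of the tumour cells and the number of mice per sample are not stated in the labels. No label states that the 2 samples of a population are from different animals, and p-values then measure only the spread between these samples.

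Siglecs read the sialic acids that cap the glycans of nearly all mammalian cells. Most of them carry inhibitory tyrosine motifs in the cytoplasmic tail, which recruit the phosphatases encoded by Ptpn6 and Ptpn11 and dampen activation. Siglec1 has no such motif and serves as an adhesion and uptake receptor of macrophages, and Siglec-H signals instead through the activating adaptor encoded by Tyrobp. In mice, Siglec-E and CD33 are known from neutrophils, monocytes and macrophages, CD22 and Siglec-G from B cells, Siglec-F from eosinophils and alveolar macrophages, and Siglec-H from plasmacytoid dendritic cells and microglia. In the intestine, resident macrophages are replenished from Ly6C-high monocytes that lose Ly6C as they mature.

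By the RefSeq annotation of GRCm38.p6, 6 of the 7 genes lie on chromosome 7 and Siglec1 lies on chromosome 2. Siglecf and Siglecg are neighbours with 0 protein-coding genes between them, 9 such genes separate Siglecg from Cd33, and 4 separate Cd33 from Siglece. Cd22 is the neighbour of Mag, the Siglec of myelin. RefSeq promoter sequences were listed for 6 of the 7 genes, and for Siglec1 none was listed. The 250 bases before the listed start are shown for Siglecf and Cd33, because this pair shares the longest identical run among the 15 pairs of these 6 genes, and for Siglech and Cd22, because both differed between colon macrophages and other populations. Capitals mark the shared run in Siglecf and Cd33, and motif matches in Siglech. The Cd22 stretch holds no match and has no capitals.
Siglecf, chr7:43351091-43351340, plus strand: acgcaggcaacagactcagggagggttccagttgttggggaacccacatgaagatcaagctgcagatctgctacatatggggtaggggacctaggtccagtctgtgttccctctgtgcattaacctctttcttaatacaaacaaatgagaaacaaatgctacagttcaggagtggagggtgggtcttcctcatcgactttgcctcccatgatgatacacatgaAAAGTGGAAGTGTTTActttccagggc
Cd33, chr7:43533172-43533421, minus strand: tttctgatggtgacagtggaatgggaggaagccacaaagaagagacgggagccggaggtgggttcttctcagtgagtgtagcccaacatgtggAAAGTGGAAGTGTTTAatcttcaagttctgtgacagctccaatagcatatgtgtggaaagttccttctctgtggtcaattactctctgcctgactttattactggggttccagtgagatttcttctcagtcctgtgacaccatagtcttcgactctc
Siglech, chr7:55767934-55768183, plus strand: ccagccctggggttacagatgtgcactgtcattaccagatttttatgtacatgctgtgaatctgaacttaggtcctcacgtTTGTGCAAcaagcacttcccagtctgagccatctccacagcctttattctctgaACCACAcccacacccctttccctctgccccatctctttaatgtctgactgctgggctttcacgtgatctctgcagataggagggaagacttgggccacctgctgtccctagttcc
Cd22, chr7:30879029-30879278, minus strand: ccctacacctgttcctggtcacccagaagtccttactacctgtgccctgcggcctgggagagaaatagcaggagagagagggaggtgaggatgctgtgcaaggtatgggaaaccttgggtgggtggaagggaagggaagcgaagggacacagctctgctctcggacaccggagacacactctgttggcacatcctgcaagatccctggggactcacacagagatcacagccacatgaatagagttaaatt
The run AAAGTGGAAGTGTTTA, of 16 bases, begins 27 bases before the listed Siglecf start and 157 bases before the listed Cd33 start. It is held by 2 of 32851 RefSeq promoter windows of the same length, counted on both strands, and these are the 2 shown. The other pairs share identical runs of at most 10 bases. Over the 8 arrays the values of Siglecf and Cd33 had a Pearson r of 0.25. All 250 printed bases of Cd33 and of Cd22 lie inside the annotated span of the gene, as do 30 of those of Siglech and 0 of those of Siglecf.

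Letters of 4 motif types were searched in the windows on both strands. The core of PU.1 sites, GAGGAA, was present for Cd33, Siglece, Siglecf and Siglecg, and in 23.3% of all windows. Siglecg has 2 listed starts and held this core only in the window of the first. A RUNX core, TGTGGT, was present for Cd33 and Siglech and in 14% of all windows. A loose C/EBP pattern, TTNNGNAA, was present for Siglece, Siglecf and Siglech and in 36.8% of all windows, and in Siglece it overlaps a PU.1 core. An interferon response pattern was present for 0 of the 6 genes and in 2.98% of all windows. These are letter matches, which show no binding.

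The sorted identities were checked against defining markers. Adgre1, the gene of F4/80, read 12.49 and 12.31 in F4/80-high TAM, 11.93 and 11.15 in Ly6C-high TAM, 12.92 and 12.83 in colon macrophages and 12.07 and 12.02 in spleen monocytes, on the log2 scale of the arrays. Ly6c2 was highest in the Ly6C-high populations, at 12.71 to 13.01, against 9.89 to 11.57 in the others. The medians of the 8 arrays lay between 6.84 and 7.07. Epithelial genes were also read in the sorted cells. The mean log2 value of 8 epithelial markers was 11.87 and 12.46 in colon macrophages, 7.33 and 9.42 in F4/80-high TAM, 7.55 and 10.12 in Ly6C-high TAM and 7.36 and 6.40 in spleen monocytes. Replicate 2 of both tumour populations stood apart from replicate 1, with more epithelial signal and a mean of 7 fibroblast markers of 9.21 and 10.03 against 8.10 and 8.75. The Siglecs themselves are not comparable with each other in level, since their probe sets bind differently, so only the order of the populations is described for each gene.

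**Figure D1:**
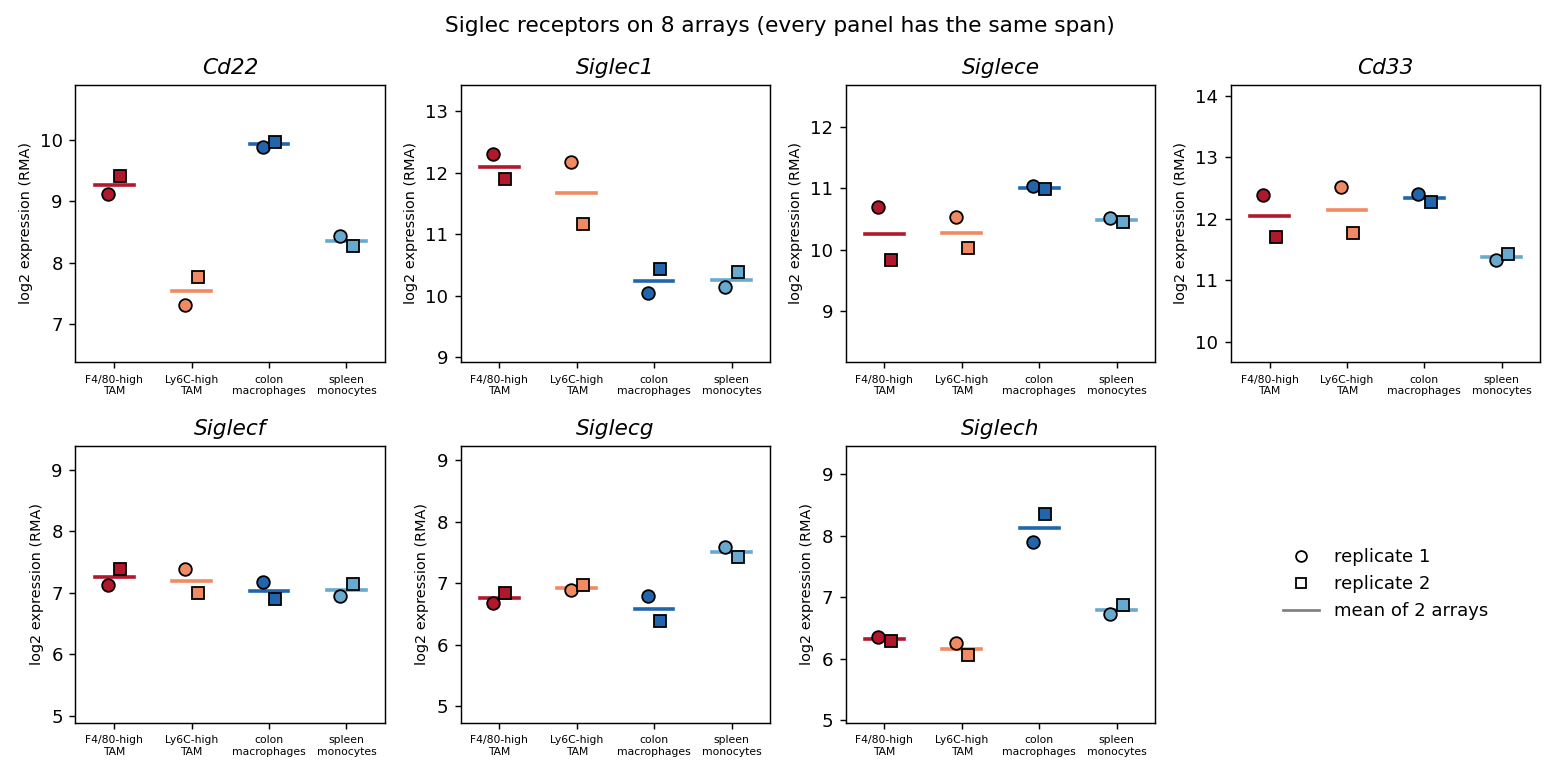
Log2 expression (RMA values, vertical axis) of the 7 Siglec genes on 8 arrays, with circles for replicate 1, squares for replicate 2 and a bar for the mean of the 2 arrays of a population. Siglec1 was highest in the tumour populations, Cd22 and Siglech in colon macrophages and Siglecg in spleen monocytes, while the Siglecf values of all populations overlapped.

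Siglec1, the sialoadhesin of macrophages and a gene known to respond to interferon, read higher in both tumour populations than in both healthy ones. It read 12.30 and 11.90 in F4/80-high TAM, 12.17 and 11.17 in Ly6C-high TAM, 10.05 and 10.44 in colon macrophages and 10.14 and 10.38 in spleen monocytes. All 4 tumour arrays lay above all 4 arrays of healthy tissue, and the lowest tumour array was Ly6C-high TAM replicate 2. Within tumour the populations overlapped, and so did those of healthy tissue. A difference passed the threshold at a limma adjusted p of 0.05 or less, adjusted over all genes by the Benjamini-Hochberg method, and a fold of 2 or more. Siglec1 was 3.62-fold higher in F4/80-high TAM than in colon macrophages (limma adjusted p = 0.0196, with a log2 difference of 1.86 ± 0.34, SE, on 2 arrays each). It was 3.58-fold higher in F4/80-high TAM than in spleen monocytes (1.84 ± 0.34, adjusted p = 0.0179) and 2.69-fold higher in Ly6C-high TAM than in colon macrophages (1.43 ± 0.34, adjusted p = 0.042). The difference of Ly6C-high TAM from spleen monocytes was 1.41 ± 0.34 and missed the threshold (adjusted p = 0.0601). In bulk samples such as these, fewer cells of a type and less RNA per cell cannot be told apart.

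For F4/80-high TAM, the size of the Siglec1 differences from healthy populations was steadier than their calls. With each array left out in turn, F4/80-high TAM minus colon macrophages ranged from 1.66 to 2.06 and lost its call without 6 of the 8 arrays, namely both arrays of F4/80-high TAM, of colon macrophages and of spleen monocytes (adjusted p up to 0.105). Against spleen monocytes it ranged from 1.64 to 2.04 and lost its call without any of the 4 arrays of that comparison (adjusted p up to 0.13). Ly6C-high TAM minus colon macrophages ranged from 0.93 without Ly6C-high TAM replicate 1 to 1.93 without its replicate 2, and kept its call only in the latter case among the 8 (adjusted p up to 0.206). Quantile normalization also ended that call (1.32, adjusted p = 0.0566). With replicate 1 alone for both tumour populations, the differences from colon macrophages were 2.06 for F4/80-high TAM and 1.93 for Ly6C-high TAM. That fit has 1 array per tumour population and so holds no spread between tumour arrays. The difference between the 2 tumour populations was 0.43 ± 0.34 (adjusted p = 0.899), with a 95% interval from -0.38 to 1.23.

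Cd22, the inhibitory receptor known from B cells, read in the order colon macrophages, F4/80-high TAM, spleen monocytes and Ly6C-high TAM. It read 9.88 and 9.97 in colon macrophages, 9.12 and 9.41 in F4/80-high TAM, 8.44 and 8.27 in spleen monocytes and 7.31 and 7.77 in Ly6C-high TAM. Both mature macrophage populations thus lay above both Ly6C-high populations, and within each of these pairs the tumour population lay lower. Cd22 was 5.21-fold lower in Ly6C-high TAM than in colon macrophages (-2.38 ± 0.19, limma adjusted p = 0.00127) and 2.96-fold higher in colon macrophages than in spleen monocytes (1.57 ± 0.19, adjusted p = 0.00266). Both calls held with any array left out, over ranges of -2.61 to -2.15 and 1.49 to 1.65. It was 3.31-fold higher in F4/80-high TAM than in Ly6C-high TAM (1.73 ± 0.19, adjusted p = 0.034). That call held only without Ly6C-high TAM replicate 2, among the 8 arrays left out in turn, although the difference stayed between 1.50 and 1.95 (adjusted p up to 0.135). Quantile normalization (1.69, adjusted p = 0.0555) and median centring (1.77, adjusted p = 0.0513) also ended it.

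The neighbouring steps in that order were smaller. F4/80-high TAM was 0.91 ± 0.19 above spleen monocytes (adjusted p = 0.0275), which is under 2-fold and so did not pass. Ly6C-high TAM minus spleen monocytes was -0.82 ± 0.19 (adjusted p = 0.0541) and F4/80-high TAM minus colon macrophages was -0.66 ± 0.19 (adjusted p = 0.0712). The tumour difference of the mature populations and that of the Ly6C-high populations differed by 0.16 ± 0.27 for Cd22 (adjusted p = 0.79).

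B-cell markers were read beside Cd22. The mean of 10 B-cell markers was 6.73 and 6.50 in colon macrophages, 6.14 and 7.21 in F4/80-high TAM, 7.43 and 6.66 in spleen monocytes and 6.21 and 6.94 in Ly6C-high TAM. Every pair of populations overlapped in this mean. Ighm was higher in colon macrophages (10.14 and 9.18) than in spleen monocytes (6.86 and 4.65), against the direction of the list median. That median was -0.79 for colon macrophages minus spleen monocytes, beside -0.07 over all genes. There 0 of 10 passed, beside 10.9% of all genes, and 6 had an unadjusted p under 0.05 in limma. Cd79b was the marker of this list that passed, lower in Ly6C-high TAM than in colon macrophages (-1.31 ± 0.22, adjusted p = 0.0134) and than in spleen monocytes (-1.42 ± 0.22, adjusted p = 0.014). Of all genes, 4.16% were lower in the first of these comparisons and 1.62% in the second. Resident macrophage markers were read likewise. The mean of 14 of them was 11.23 and 11.37 in colon macrophages, 11.46 and 10.90 in F4/80-high TAM, 10.45 and 9.96 in Ly6C-high TAM and 9.19 and 8.93 in spleen monocytes. Both mature populations lay above both Ly6C-high ones in this mean, and Ly6C-high TAM lay above spleen monocytes. The part of cell composition in the Cd22 differences was not tested.

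Siglech, the receptor of plasmacytoid dendritic cells that pairs with Tyrobp, was highest in colon macrophages. It read 7.89 and 8.36 in colon macrophages, 6.72 and 6.88 in spleen monocytes, 6.36 and 6.29 in F4/80-high TAM and 6.26 and 6.07 in Ly6C-high TAM. The values outside colon, 6.07 to 6.88, lay within or below the range of the array medians. Siglech was 3.49-fold lower in F4/80-high TAM than in colon macrophages (-1.80 ± 0.18, limma adjusted p = 0.00353), 3.90-fold lower in Ly6C-high TAM than in colon macrophages (-1.96 ± 0.18, adjusted p = 0.00201) and 2.51-fold higher in colon macrophages than in spleen monocytes (1.33 ± 0.18, adjusted p = 0.00398). All 3 calls held with any array left out, over ranges of -2.04 to -1.57, -2.20 to -1.73 and 1.09 to 1.56. F4/80-high TAM minus Ly6C-high TAM was 0.16 ± 0.18 (adjusted p = 0.959), and the differences of these populations from spleen monocytes, -0.48 and -0.64, did not pass.

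Siglech was also the member whose difference between tumour and healthy tissue itself differed between the mature and the Ly6C-high populations. The difference of F4/80-high TAM from colon macrophages was 1.16 ± 0.25 lower than that of Ly6C-high TAM from spleen monocytes (-1.16, limma adjusted p = 0.0469). This passed at an adjusted p of 0.05, with no fold limit, as did 6.56% of all genes, 3.12% with a positive and 3.44% with a negative value. With each array left out in turn it ranged from -1.40 to -0.93 and kept its call only without colon macrophages replicate 1 (adjusted p up to 0.189). The same -1.16 is the difference between the tumour populations, 0.16, minus that between colon macrophages and spleen monocytes, 1.33. The Siglech values of both tumour populations, 6.07 to 6.36, lay below the range of the array medians and were not shown to be above background.

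Epithelial signal was also highest in colon macrophages. Colon replicate 2 was higher than replicate 1 in Siglech and in the epithelial mean. All 8 epithelial markers were higher in colon macrophages than in spleen monocytes, beside 6.93% of all genes. Ly6C-high TAM replicate 2 had an epithelial mean of 10.12 and the lowest Siglech value of the 8 arrays, 6.07. The gut hormone gene Sst read 6.75 on that array. Of 10 markers of plasmacytoid dendritic cells, Klk1, a kallikrein, was higher in colon macrophages than in spleen monocytes (5.53 ± 0.74, limma adjusted p = 0.00395) and Ly6c2 was lower. Of all genes, 6.93% were higher and 857 of 21442 lower there. In colon macrophages Klk1 read 11.7 and 12.6, against 6.4 to 8.7 on the other arrays. The mean of the 10 markers, Klk1 included, spanned 8.54 to 8.58 in colon macrophages and 8.26 to 8.61 over the other arrays. The homing receptor Ccr9 of this list read 5.54 to 5.95 on all arrays. The list median was -0.37 for colon macrophages minus spleen monocytes, beside -0.07 over all genes. Bst2 of this list was higher in F4/80-high TAM (2.08 ± 0.19, adjusted p = 0.00309) and Ly6C-high TAM (1.64 ± 0.19, adjusted p = 0.00415) than in colon macrophages. Against colon macrophages 2 of the 10 were higher and 1 lower in each tumour population. The shares of all genes were 2.67% and 3.72% for F4/80-high TAM and 2.74% and 4.16% for Ly6C-high TAM. Tyrobp passed in 0 of the 6 comparisons, with differences of -0.44 to 0.17. The part of epithelial RNA in the Siglech difference was not tested.

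**Figure D2:**
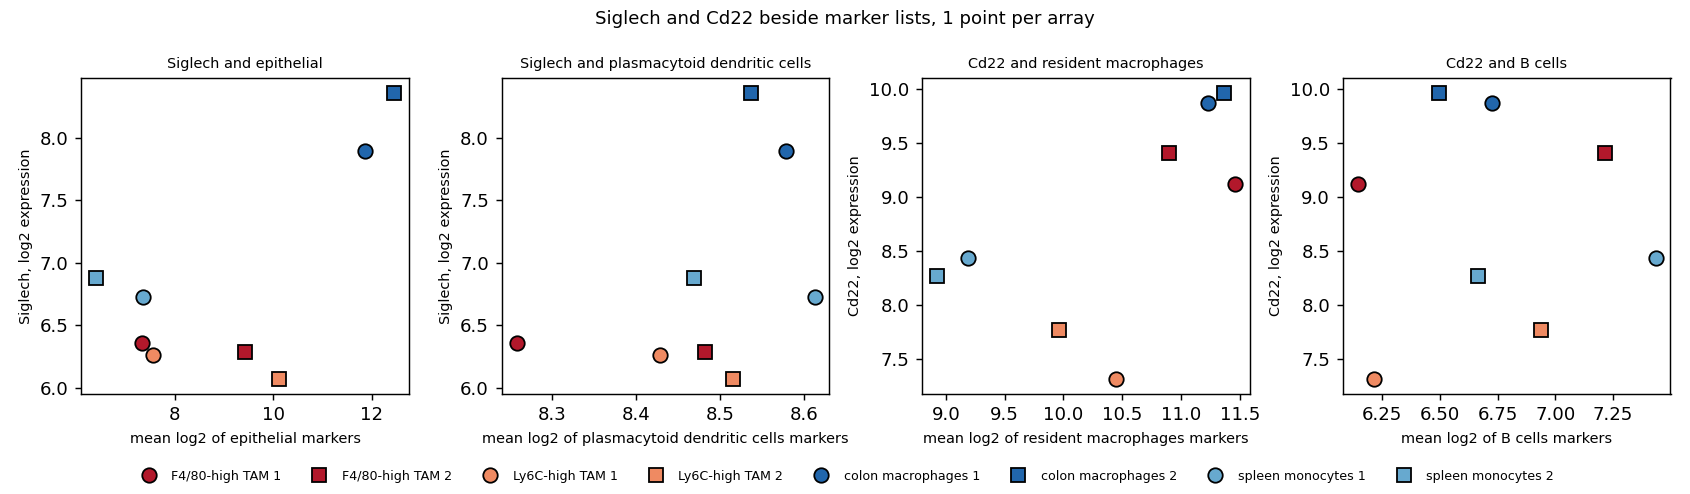
Log2 expression of Siglech or Cd22 (vertical axes) against the mean log2 value of a marker list (horizontal axes), with 1 point per array, coloured by population. Siglech is high on both colon arrays, which also have the highest epithelial means. The tumour arrays with epithelial means of 9.42 and 10.12 read 6.29 and 6.07 in Siglech. The part of epithelial RNA in these values was not tested. Cd22 is shown against resident macrophage and B-cell markers, and its highest values, on the colon arrays, lie at B-cell means of 6.73 and 6.50.

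Cd33 and Siglece are the Siglecs known from mouse monocytes and neutrophils, and no difference of either gene passed the threshold. Cd33 read 12.39 and 11.71 in F4/80-high TAM, 12.51 and 11.78 in Ly6C-high TAM, 12.40 and 12.26 in colon macrophages and 11.34 and 11.43 in spleen monocytes. Spleen monocytes were below all 6 other arrays, and the other 3 populations overlapped. Colon macrophages lay 0.95 ± 0.30 above spleen monocytes, with a limma adjusted p of 0.0744 and a 95% interval from 0.24 to 1.66. Ly6C-high TAM lay 0.76 ± 0.30 above spleen monocytes (adjusted p = 0.206) and F4/80-high TAM 0.67 ± 0.30 (adjusted p = 0.227). With replicate 1 alone for both tumour populations, both of their Cd33 differences from spleen monocytes were larger, in a fit that holds no spread between tumour arrays.

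Siglece, an inhibitory receptor, read 10.70 and 9.83 in F4/80-high TAM, 10.53 and 10.02 in Ly6C-high TAM, 11.03 and 10.99 in colon macrophages and 10.51 and 10.45 in spleen monocytes. Both colon arrays lay above the 6 others, among which the populations overlapped. The differences from colon macrophages were -0.74 ± 0.30 for F4/80-high TAM (adjusted p = 0.169, 95% interval from -1.46 to -0.03) and -0.73 ± 0.30 for Ly6C-high TAM (adjusted p = 0.188). In both tumour populations replicate 1 read higher than replicate 2 for Siglec1, Cd33 and Siglece. The gaps in Siglece were as large as the difference from colon macrophages in F4/80-high TAM, and replicate 2 also carried the higher epithelial and fibroblast means given above. Whether that signal bears on the gaps was not tested.

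Siglecg, a B-cell inhibitor whose known ligands include CD24, was highest in spleen monocytes, at 7.59 and 7.43. It read 6.68 and 6.84 in F4/80-high TAM, 6.89 and 6.97 in Ly6C-high TAM and 6.80 and 6.38 in colon macrophages. The spleen arrays stood above the 6 others, which read 6.38 to 6.97. These values lay within or below the range of the array medians, 6.84 to 7.07, and were not shown to be above background. Siglecg was lower in colon macrophages than in spleen monocytes by -0.92 ± 0.17 (limma adjusted p = 0.0116) and in F4/80-high TAM than in spleen monocytes by -0.75 ± 0.17 (adjusted p = 0.0352). Both are under 2-fold and did not pass. The B-cell marker mean of spleen monocyte replicate 1, 7.43, was the highest of the 8 arrays, and that of replicate 2 was 6.66, within the range of the others. The part of B-cell RNA in the Siglecg values was not tested.

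Siglecf, the eosinophil Siglec of mice, read between 6.89 and 7.38 on all 8 arrays, and every pair of populations overlapped. These values lay about the range of the array medians, 6.84 to 7.07, and the probe set was not shown to read above background. Its 6 differences lay between -0.01 and 0.22, and the 95% interval bound farthest from 0 was 0.67. Of 6 eosinophil markers, the granule genes Epx and Prg2 read 5.20 to 5.66 on all arrays and 2, the ribonuclease genes Ear1 and Ear2, were lower than in spleen monocytes in each of the other populations. Ear2 read 12.93 and 12.52 in spleen monocytes, 10.49 and 9.50 in Ly6C-high TAM, 9.29 and 8.05 in colon macrophages and 6.74 and 7.20 in F4/80-high TAM. The mean of the list was 7.84 and 7.62 in spleen monocytes and 5.70 to 6.78 on the 6 other arrays, and its part in the Siglecf values was not tested. Mag, which is expressed by myelinating glia and is not among the 7 genes, read 7.85 and 7.55 in F4/80-high TAM, 7.07 and 6.53 in Ly6C-high TAM, 7.33 and 7.22 in colon macrophages and 6.65 and 6.57 in spleen monocytes. It was 2.12-fold higher in F4/80-high TAM than in spleen monocytes (1.09 ± 0.20, adjusted p = 0.0188). Its spleen values lay below the range of the array medians and were not shown to be above background. Its pattern had a Pearson r of 0.60 with that of its neighbour Cd22 over the 8 arrays.

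Counted over the family, 2 of 7 members passed in F4/80-high TAM against colon macrophages, 1 higher (Siglec1) and 1 lower (Siglech), where 6.39% of all genes passed, 2.67% higher and 3.72% lower. In Ly6C-high TAM against colon macrophages, 3 of 7 passed, with Siglec1 higher and Cd22 and Siglech lower, against 6.90% of all genes, 2.74% higher and 4.16% lower. In colon macrophages against spleen monocytes, 2 of 7 passed, Cd22 and Siglech, both higher, against 10.9% of all genes and 6.93% in that direction. In F4/80-high TAM against spleen monocytes Siglec1 was higher, against 6.95% of all genes, 4.58% higher and 2.37% lower. In F4/80-high TAM against Ly6C-high TAM Cd22 was higher, against 0.266% of all genes, 0.168% higher and 0.0979% lower. In Ly6C-high TAM against spleen monocytes 0 of 7 passed in limma, against 4.50% of all genes, 2.88% higher and 1.62% lower. There 5 members, Cd22, Siglec1, Cd33, Siglecg and Siglech, had an unadjusted p under 0.05, as did 4662 of all genes, and of the 18 alternatives 14 gave 0 calls. The count was 1 with median centring or an intensity trend. It was higher without Ly6C-high TAM replicate 2 and with replicate 1 alone for both tumour populations. Those fits hold no spread within Ly6C-high TAM. The median difference of the 7 members was -0.28, -0.19, 0.53, 0.21, 0.07 and -0.20 in these comparisons in turn, beside medians over all genes of 0.05, -0.01, -0.07, -0.02, 0.05 and -0.08. The comparisons share populations and so are not separate evidence, and with 7 members each share rests on very few genes.

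**Figure D3:**
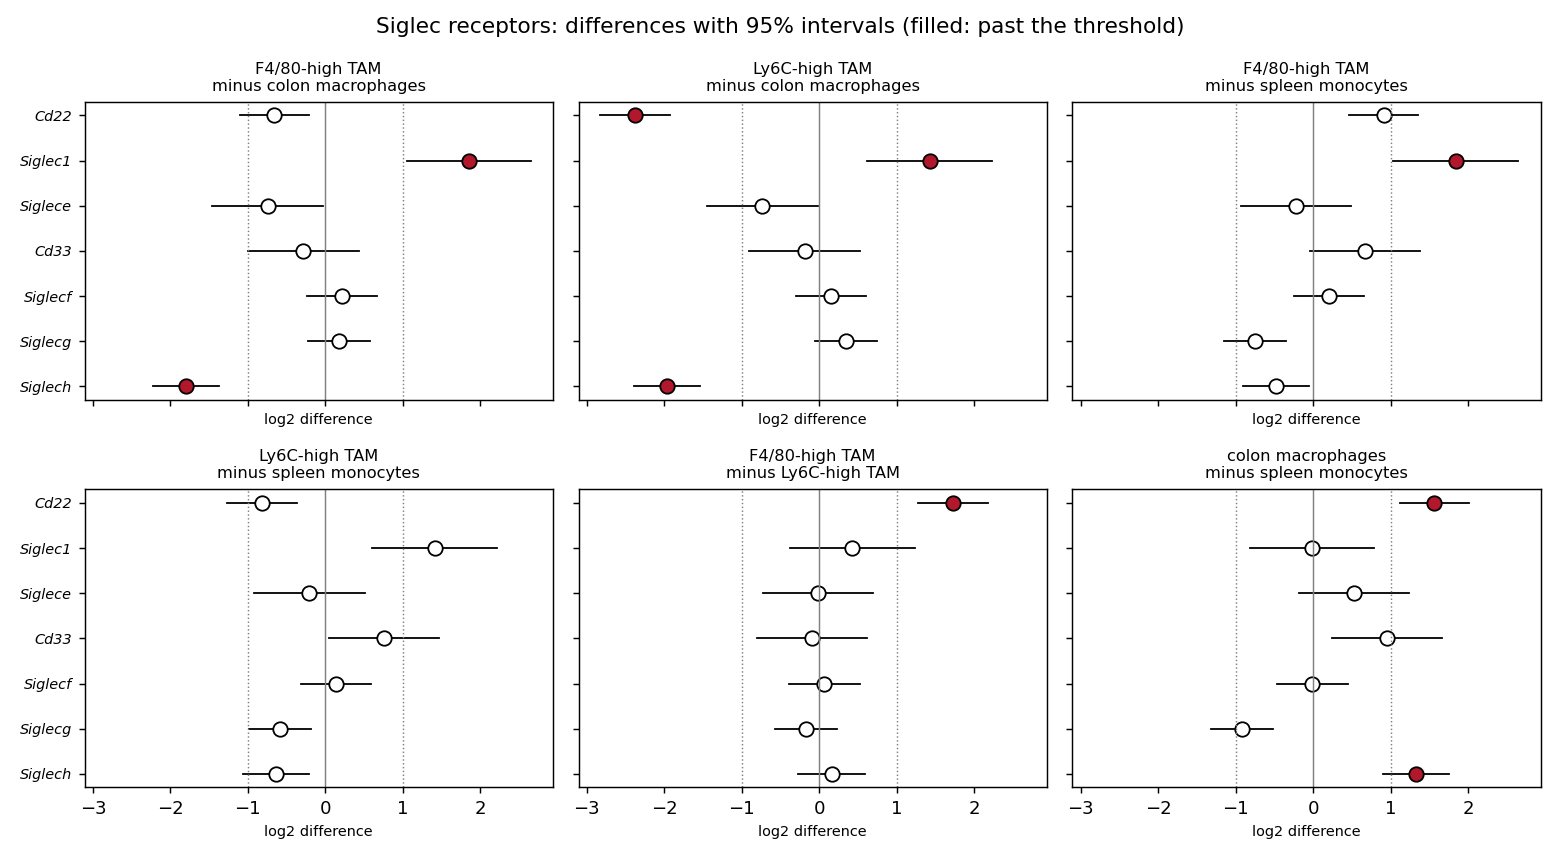
Log2 differences (horizontal axes) of the 7 Siglec genes in the 6 comparisons, with 95% intervals as lines, filled points where a difference passed the threshold and dotted lines at a 2-fold difference. Siglec1 lies to the right in the comparisons of tumour with healthy populations, Siglech to the left in both comparisons with colon macrophages, and Siglecf near 0 throughout.

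**Figure D4:**
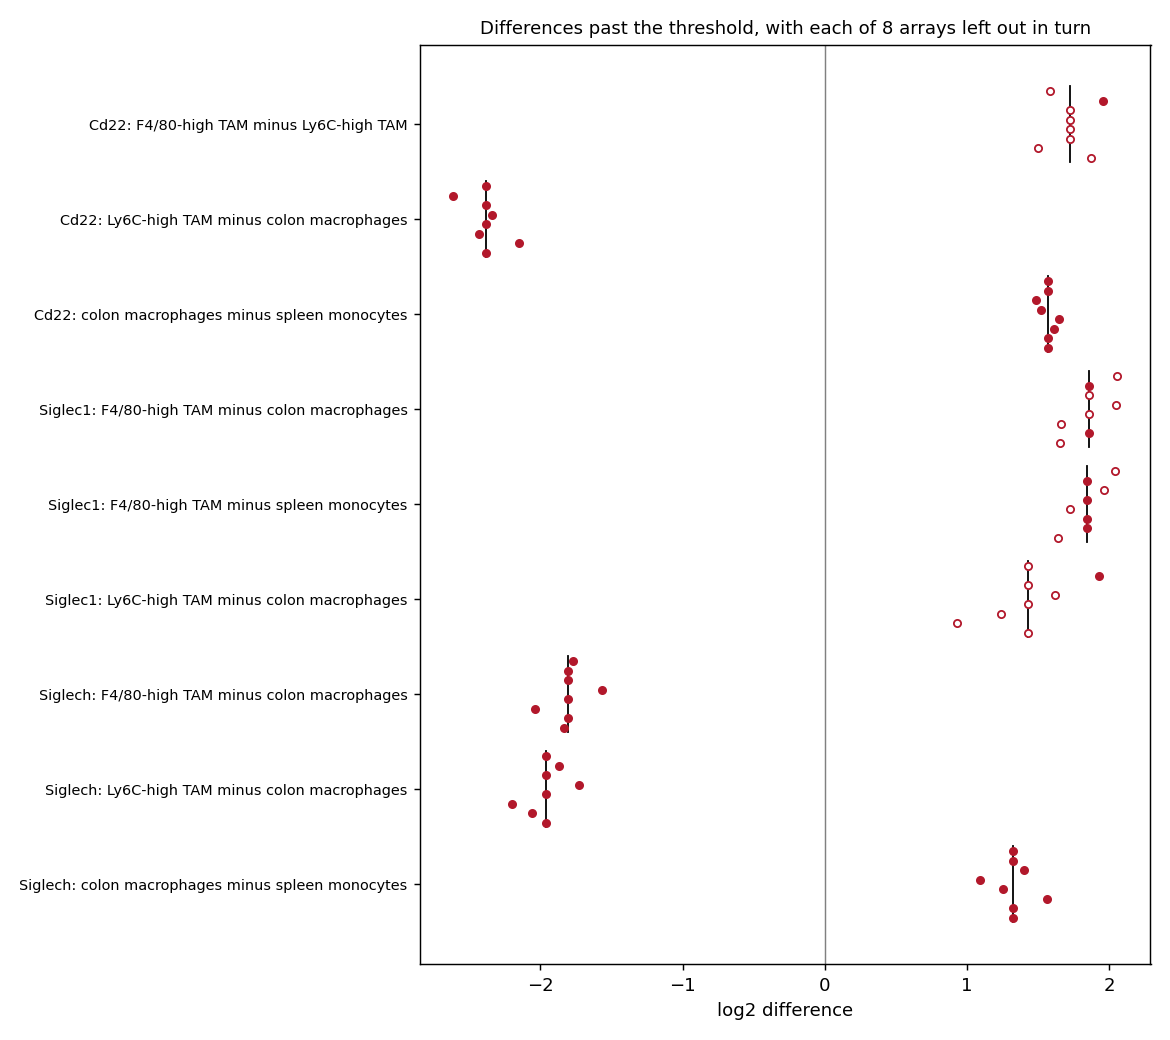
The 9 pairwise differences past the threshold (black bars, log2 scale) with the values obtained when each of the 8 arrays was left out (points), filled where the call was kept. The Siglech calls and the Cd22 calls against colon macrophages were kept throughout, while the Siglec1 calls and the Cd22 call between the tumour populations were often lost although the values stayed on the same side of 0.

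The members differed in their patterns. Over the 8 arrays, Pearson r between members ran from -0.79 for Cd33 and Siglecg to 0.78 for Siglece and Siglech, and r was 0.72 for Cd22 and Siglech. These values describe 8 arrays of 4 populations that share tissue and cell type. Among 4149 named genes whose population means spanned at least 1 on the log2 scale, those most like Siglec1 over the 8 arrays were Fam169b (r = 0.98), Fbxw17 (r = 0.97) and Il18bp (r = 0.97), which encodes the binding protein of interleukin 18. Those most like Cd22 were Gmpr (r = 0.97), Rilpl2 (r = 0.96) and Dnaaf3 (r = 0.96). Those most like Siglech were Edn2, which encodes an endothelin (r = 0.99), Sst, which encodes the gut hormone somatostatin (r = 0.99), and Golt1a (r = 0.98). Sst read 7.63 and 8.22 in colon macrophages and 6.75 to 7.18 on the 6 other arrays.

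Of 16 signalling partners of Siglecs, the most calls were between colon macrophages and spleen monocytes. In F4/80-high TAM against colon macrophages 0 of 16 passed in either direction, beside 6.39% of all genes, and 6 of 16 had an unadjusted p under 0.05 in limma. The phosphatase gene Ptpn6 differed by 0.52 ± 0.19 (limma adjusted p = 0.128). The adaptor gene Blnk, which links the kinase Syk to phospholipase C, read 10.52 and 10.54 in F4/80-high TAM, 8.36 and 8.95 in Ly6C-high TAM, 11.15 and 11.30 in colon macrophages and 7.45 and 7.06 in spleen monocytes. As with Cd22, both mature populations lay above both Ly6C-high ones, and Blnk was 3.97 ± 0.22 higher in colon macrophages than in spleen monocytes (adjusted p = 0.000205). It was also 1.87 ± 0.22 higher in F4/80-high TAM than in Ly6C-high TAM (adjusted p = 0.041). There 1 of 16 was higher and 0 lower, beside 0.168% and 0.0979% of all genes. The kinase gene Src was higher than in spleen monocytes in F4/80-high TAM (2.21 ± 0.26), Ly6C-high TAM (2.58 ± 0.26) and colon macrophages (2.44 ± 0.26), and its relative Fgr was lower than in spleen monocytes in F4/80-high TAM (-1.78 ± 0.24) and colon macrophages (-2.17 ± 0.24). In the 3 comparisons with spleen monocytes, in the order F4/80-high TAM, Ly6C-high TAM and colon macrophages, 2, 2 and 3 of 16 were higher and 2, 0 and 4 lower. Of all genes, 4.58%, 2.88% and 6.93% were higher and 2.37%, 1.62% and, in the last, 857 of 21442 were lower. In Ly6C-high TAM against colon macrophages Fgr was higher and Blnk lower, each 1 of 16, beside 2.74% and 4.16% of all genes.

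Of the genes that make and attach sialic acid, the ligand side, more were lower than higher in tumour cells against colon macrophages, and most passed in neither direction. Of 25 genes, 1 was higher and 8 lower in F4/80-high TAM, beside 2.67% and 3.72% of all genes, and 1 was higher and 7 lower in Ly6C-high TAM, beside 2.74% and 4.16%. The list medians were -0.60 and -0.49. Those lower included Cmah, which converts sialic acid to its glycolyl form (-2.45 ± 0.42 in F4/80-high TAM, limma adjusted p = 0.0169), the sialyltransferase genes St6galnac2 (-2.32 ± 0.21, adjusted p = 0.0028) and St3gal6 (-2.32 ± 0.38, adjusted p = 0.0142). St3gal5, which makes the ganglioside GM3, was the gene higher in both, by 2.85 ± 0.53 (adjusted p = 0.0212) and 2.68 ± 0.53 (adjusted p = 0.0237). It read 9.62 and 8.65 in F4/80-high TAM, 9.78 and 8.15 in Ly6C-high TAM, 6.35 and 6.22 in colon macrophages and 7.72 and 7.78 in spleen monocytes. Between colon macrophages and spleen monocytes 7 of 25 were higher and 2 lower, beside 6.93% of all genes higher and 857 of 21442 lower. Gne, the gate of sialic acid synthesis, was among those higher in colon macrophages (2.67 ± 0.47, adjusted p = 0.0103). The colon arrays also had the highest epithelial means, 11.87 and 12.46. The part of epithelial RNA in the list's difference was not tested.

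Against spleen monocytes, 2 of the 25 genes were higher and 4 lower in F4/80-high TAM, and 0 were higher and 2 lower in Ly6C-high TAM. The shares of all genes were 4.58% higher and 2.37% lower, and 2.88% higher and 1.62% lower, so that the counts of higher genes are near the background. St8sia6, a sialyltransferase that adds sialic acid to sialic acid, was lower in both, by -1.75 ± 0.14 (limma adjusted p = 0.000871) and -1.93 ± 0.14 (adjusted p = 0.000908). Between the tumour populations 0 of the 25 genes passed in limma, where 0.266% of all genes did, so that the count says little about the list, and 5 had an unadjusted p under 0.05. Of 7 genes that remove sialic acid, Npl, the lyase of free sialic acid, was higher in colon macrophages than in spleen monocytes (4.07 ± 0.65, adjusted p = 0.00733) and lower in Ly6C-high TAM than in colon macrophages (-3.71 ± 0.65, adjusted p = 0.016). Of all genes, 6.93% were higher in the first of these comparisons and 4.16% lower in the second. The 4 other comparisons had 0 calls in that list of 7 in limma, with 0 to 3 genes at an unadjusted p under 0.05. There 0.266% to 6.95% of all genes passed, so that these counts say little about the list.

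Of 8 sialylated ligands and partners, Spn, the sialomucin CD43, read 9.97 and 10.12 in spleen monocytes and 6.96 to 7.96 on the other arrays. It was lower than in spleen monocytes by -2.12 ± 0.14 in F4/80-high TAM (limma adjusted p = 0.000328), by -2.44 ± 0.14 in Ly6C-high TAM (adjusted p = 0.00036) and by -2.95 ± 0.14 in colon macrophages (adjusted p = 0.000152). In these 3 comparisons 1, 0 and 1 of 8 members of the list were higher and 2, 1 and 2 lower, beside 4.58%, 2.88% and 6.93% of all genes higher and 2.37%, 1.62% and 857 of 21442 lower. Cd24a, which encodes a ligand of Siglec-G, read 6.96 and 10.11 in F4/80-high TAM, 11.39 and 10.90 in Ly6C-high TAM, 11.28 and 11.81 in colon macrophages and 9.46 and 8.79 in spleen monocytes. The gap between the F4/80-high TAM replicates was larger than any difference between population means, and no Cd24a difference passed (adjusted p of 0.0829 to 0.854 over the 6 comparisons).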

How the data were processed

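Expression was measured on 8 Affymetrix arrays. The deposited values are log2 expression values per probe set. RMA and Partek 6.6 were used by the authors, per the submitters' processing notes. RMA corrects background and normalises arrays, which can shrink differences of dim probe sets. The genome build is not given in the sources used here. Values came from the series matrix (35556 probe sets), and symbols from a deposited annotated table, whose 8 value columns match no sample label and were not used. RefSeq accessions updated 1926 symbols. A gene was represented by its probe set of highest mean.

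The model, run in limma 3.58.1 under R 4.3.3, had a mean per population, all 8 arrays and empirical Bayes moderation (4 residual and 2.64 prior degrees of freedom), and p-values were adjusted over 21442 genes per comparison. The threshold (adjusted p of 0.05, 2-fold) follows the submitters. The interaction had no fold limit. Errors are SE of the fit, from 1 spread per gene shared by all populations. The replicates were not equally close, and differed by 2-fold or more in 1536 genes in Ly6C-high TAM and 76 in spleen monocytes. The fit was tested on simulated data. The number of arrays limits the precision. Alternatives comprised arrays left out in turn, replicate 1 alone for the tumour populations, a replicate block, quantile normalization, median centring, a filter on dim genes, averaged probe sets, an intensity trend, no moderation, fits of 2 groups and no fold limit. Members, lists, tests and alternatives were chosen with earlier results of these data known. Named genes were all members and Mag, up to 4 called genes per list and comparison with the largest differences, and the 3 genes most like each called member. Not every gene so named is printed. Ccr9, Epx, Prg2, Tyrobp, Ptpn6 and Cd24a were named from the lists outside this rule, after their values were seen, as were the sort markers.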

Additional observations from a re-analysis of the deposited data

Results flagged for a closer look

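Groups held 2 arrays each, too few to test for a sample far from the others. Siglech was marked because its difference between tumour and healthy tissue differed between the mature and the Ly6C-high populations, by -1.16 on the log2 scale (limma adjusted p = 0.0469). The first difference was -1.80 (F4/80-high TAM minus colon macrophages) and the second -0.64 (Ly6C-high TAM minus spleen monocytes). Between the tumour populations the difference was 0.16, and between colon macrophages and spleen monocytes 1.33. The Siglech values of both tumour populations lay below the range of the array medians and were not shown to be above background. The call was lost without any of 7 of the 8 arrays, at an adjusted p of up to 0.189.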

How the results depend on the processing

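Of 772 recalculated differences (43 differences under up to 18 alternatives), 689 kept their direction and side of the threshold, 44 lost a call, 13 gained one and 26 changed sign, all 26 among differences that had not passed. With each array left out, the members past the threshold numbered 1 to 2 in F4/80-high TAM against colon macrophages, 0 to 1 against Ly6C-high TAM, 0 to 1 against spleen monocytes, 0 to 2 in Ly6C-high TAM against spleen monocytes, 2 to 3 against colon macrophages, 2 to 3 in colon macrophages against spleen monocytes and 0 to 1 in the interaction. Leaving out an array outside a comparison alters only the spread of the fit. With no moderation the count was 1 (from 2) for F4/80-high TAM against colon macrophages, and 0 (from 1) against Ly6C-high TAM, against spleen monocytes and in the interaction. It was 0 for F4/80-high TAM against Ly6C-high TAM with quantile normalization, median centring or only the 2 groups in the fit. For F4/80-high TAM against spleen monocytes it was 2 with median centring or with replicate 1 alone for the tumour populations, and 3 with no fold limit. For Ly6C-high TAM against spleen monocytes it rose from 0 to 1 with median centring or an intensity trend, in both cases Siglec1, and to 3 with replicate 1 alone for the tumour populations. For the interaction it was 0 with median centring or an intensity trend. With replicate 1 alone the interaction count was again 1, but for Cd33 in place of Siglech. The causes were not tested, except that fewer arrays or groups in a fit leave it fewer degrees of freedom. With replicate 1 alone for the tumour populations, the spread came only from the colon and spleen arrays. The counts of that fit thus hold no spread between tumour arrays. Median centring moved the median of all genes by 0.14 in F4/80-high TAM against colon macrophages and by 0.13 against spleen monocytes, and quantile normalization by 0.11 in the latter.

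The sign changes were these. With replicate 1 alone for both tumour populations, Cd33 against colon macrophages was 0.0588 in F4/80-high TAM and 0.18 in Ly6C-high TAM, Siglece was 0.17 (F4/80-high minus Ly6C-high TAM), 0.22 (F4/80-high TAM minus spleen monocytes) and 0.0498 (Ly6C-high TAM minus spleen monocytes), and Siglecf was -0.26 (F4/80-high minus Ly6C-high TAM). Median centring gave 0.0339 for Siglece between the tumour populations, and quantile normalization 0.12 for Siglec1 in colon macrophages minus spleen monocytes. With arrays left out, F4/80-high TAM minus colon macrophages ran from -0.0333 to 0.38 for Siglecg and -0.62 to 0.0588 for Cd33. F4/80-high minus Ly6C-high TAM ran from -0.45 to 0.43 for Siglece, -0.46 to 0.27 for Cd33, -0.0701 to 0.93 for Siglec1 and -0.13 to 0.26 for Siglecf. Ly6C-high TAM minus spleen monocytes ran from -0.0549 to 0.33 for Siglecf and -0.46 to 0.0498 for Siglece, F4/80-high TAM minus spleen monocytes from -0.65 to 0.22 for Siglece, and Ly6C-high TAM minus colon macrophages from -0.0460 to 0.34 for Siglecf and -0.56 to 0.18 for Cd33. Colon macrophages minus spleen monocytes ran from -0.21 to 0.18 for Siglec1 and -0.15 to 0.13 for Siglecf.

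The labels do not tie replicate numbers to animals. The deviations of same-numbered arrays correlated at 0.77 between the tumour populations, at 0.22 and 0.26 between these and colon macrophages, and at -0.15 to -0.06 for spleen monocytes with the others. With the replicate block over all 8 arrays the counts of members past the threshold stayed at 2, 1, 0, 1, 3 and 2 in the 6 comparisons and 1 in the interaction, with the same genes, and the block changed no call of a member.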
